A study of Mus musculus with 4 samples.

Results

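The genes described here are 43 mitosis genes, whose products carry a cell from G2 phase through chromosome condensation, spindle assembly, chromosome segregation and cytokinesis. They were chosen by gene name from a list of G2 and M phase genes, and each of the 43 names was found once among the 54078 features measured. RNA was sequenced from kidneys taken at day 3 after both renal pedicles had been clamped for 30 min (bilateral ischemia-reperfusion, I/R), with 2 libraries of each genotype (WT and KO) and 4 in all. No uninjured kidneys were analysed here. The WT mice were Apela flox/flox littermates without Cre, so the controls carried the floxed alleles as well. The KO mice were Apela flox/flox with Ksp-Cre, in which Cre is driven by the promoter of Ksp-cadherin, a gene of renal tubular epithelium, so deletion was limited to the tubular cells that express it. All mice were adult males, given in the labels as C57BL/6 x 129S4/SvJae and in the study's methods as C57BL/6. Each library was a pool of RNA from 3 mice, so n = 2 counts pools and not animals. The design text names adipose tissue as the source, whereas the title and the sample labels name kidney.

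Entry into mitosis is driven by Cdk1 bound to cyclin B and by the Polo and Aurora kinases. The kinetochore then couples chromosomes to spindle microtubules, the spindle checkpoint holds the anaphase promoting complex (APC/C) inactive until every chromosome is attached, and the central spindle directs the cleavage furrow. Few tubular cells divide in the healthy adult kidney, and surviving tubular cells re-enter the cell cycle after ischemic injury. The mRNAs of most of these genes accumulate together in G2 and M phase through the DREAM and MuvB complexes, which act at a promoter element called the cell cycle genes homology region (CHR), often beside CCAAT boxes bound by NF-Y.

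Because this shared control acts at promoters, the start sites of members whose levels carry the results below were read from RefSeq sequences of GRCm38.p6. A promoter of 300 bases, from 250 before to 50 after the transcription start, was found for 35 of the 43 genes, as 37 promoters, and those of Smc4, Kif20a, Aurkb, Foxm1, Cdc25c, Pbk, Tpx2 and Ccna2 were not used here. Each sequence that follows runs 5′ to 3′ on the strand of its gene, from 80 bases before the start to 20 bases from it, with the CHR letters TTTGAA and the CCAAT box in capitals on either strand (TTCAAA and ATTGG when they lie on the opposite strand). Cdk1 (chr10:69352893-69352992, minus strand), Ccnb2 (chr9:70421535-70421634, minus strand), Top2a (chr11:99024170-99024269, minus strand), Cdc20 (chr4:118437324-118437423, minus strand), Ube2c (chr2:164769849-164769948, plus strand) and Hmmr (chr11:40733418-40733517, minus strand) are shown because they were high and low in the same pools as most members and hold both elements in this stretch. Mki67 (chr7:135716360-135716459, minus strand) and Ccnb1 (chr13:100786467-100786566, minus strand) are shown as members with that pool pattern but no CHR letters in it. Of the 37 stretches, 15 held the CHR letters, 25 held a CCAAT box and 14 held both. Kif11 (chr19:37376302-37376401, plus strand), Spc25 (chr2:69206194-69206293, minus strand) and Nek2 (chr1:191821393-191821492, plus strand) are shown because their levels or their order between pools set them apart.
Cdk1: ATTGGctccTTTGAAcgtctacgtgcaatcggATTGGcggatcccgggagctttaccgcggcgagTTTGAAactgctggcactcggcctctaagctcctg
Ccnb2: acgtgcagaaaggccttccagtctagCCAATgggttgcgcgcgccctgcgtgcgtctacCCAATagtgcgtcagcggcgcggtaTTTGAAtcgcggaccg
Top2a: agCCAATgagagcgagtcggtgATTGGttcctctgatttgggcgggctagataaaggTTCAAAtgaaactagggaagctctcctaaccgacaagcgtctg
Cdc20: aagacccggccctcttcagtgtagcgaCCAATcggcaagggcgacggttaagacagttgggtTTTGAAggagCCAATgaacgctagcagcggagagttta
Ube2c: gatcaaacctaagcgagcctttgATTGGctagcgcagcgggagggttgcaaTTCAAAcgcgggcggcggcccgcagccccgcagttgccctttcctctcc
Hmmr: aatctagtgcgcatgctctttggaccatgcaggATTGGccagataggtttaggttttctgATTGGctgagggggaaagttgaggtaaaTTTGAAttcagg
Mki67: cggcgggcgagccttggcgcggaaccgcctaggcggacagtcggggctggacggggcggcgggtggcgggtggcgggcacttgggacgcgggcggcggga
Ccnb1: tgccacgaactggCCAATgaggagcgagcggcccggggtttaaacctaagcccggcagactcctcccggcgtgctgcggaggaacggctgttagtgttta
Kif11: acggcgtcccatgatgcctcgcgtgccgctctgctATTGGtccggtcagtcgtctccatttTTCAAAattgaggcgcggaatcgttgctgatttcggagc
Spc25: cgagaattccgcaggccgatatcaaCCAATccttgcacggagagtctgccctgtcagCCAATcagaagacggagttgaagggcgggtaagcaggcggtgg
Nek2: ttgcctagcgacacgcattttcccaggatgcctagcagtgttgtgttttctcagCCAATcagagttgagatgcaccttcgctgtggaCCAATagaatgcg

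The letters TTTGAA occurred on either strand in 29 of the 37 promoters (78.4%), against 17.9% of all 32851 RefSeq promoters of this length, and CCAAT occurred in 30 (81.1%), against 37.4%. Both occurred in 26 (70.3%), against 6.95%, and at least 2 CCAAT boxes in 54.1%, against 11.7%. The CHR letters lay close to the start, with the median first base at +3, where the start is +1, and the CCAAT boxes lay further upstream, with a median first base at -68. Of 76 promoters of other G2 and M phase genes, 38 held the CHR letters, with CCAAT in 64.5% and both in 35.5%. Among 55 promoters of DNA replication and S phase genes the CHR letters were found in 18.2% and CCAAT in 58.2%, and among 22 promoters of cell cycle inhibitors in 9.09% and 59.1%. At least 2 CCAAT boxes occurred in 35.5% of the other G2 and M phase promoters, 36.4% of the S phase promoters and 22.7% of the inhibitor promoters. No TTTGAA was present in the promoters of Ncaph, Ccnb1, Nek2, Birc5, Cenpe, Nuf2, Bub1 and Nusap1. Spc25 held it at +25 and Mki67 at -116 and -98, beyond the stretches printed. A match is a description of letters and not of a bound site, and the lack of one says only that these letters are not in this window.

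The deletion was checked first. Apela had an FPKM (fragments relative to gene length and library size) of 5.27 and 4.57 in the WT pools and of 0.536 and 0.245 in the KO pools, from 85, 79, 9 and 4 reads. The depth was similar in all libraries, with 16045724 to 16927742 reads on genes. Single mitosis genes were covered by 6 to 1998 reads per library, with a median of 353. In whole-kidney RNA, fewer dividing cells and less of these mRNAs per cell cannot be told apart.

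Every mitosis gene was detected in all 4 pools. Of the 43 genes, 41 had a mean of at least 0.5 FPKM and entered the test, with means from 1.06 FPKM for Ttk to 20.3 FPKM for Cdc20. The other two, Nek2 and Kif11, were below that level. FPKM divides by gene length, so levels of different genes can be set side by side, but only roughly. For 39 members the length is that of the merged exons of all transcripts. Such a length can exceed that of any single transcript and so lower the FPKM. The lengths in the table of Cdc25c, Ndc80, Kif11 and Kif20a were shorter than their merged exons in GENCODE M21.

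**Figure D1:**
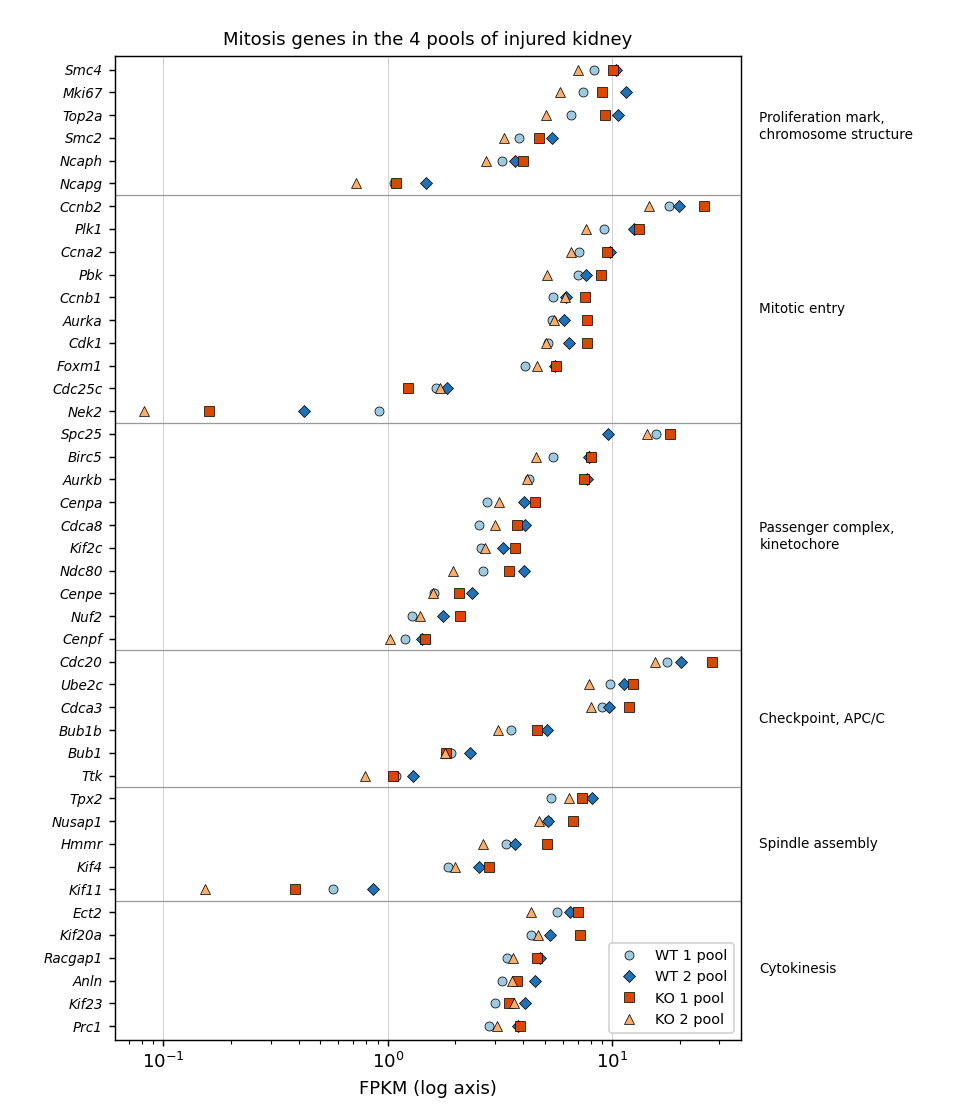
Level of each of the 43 mitosis genes in the 4 pools, as FPKM on a log axis, ordered by role and by mean level within a role, with 1 symbol per pool (WT in blue, KO in orange). In most rows the KO 1 and WT 2 symbols lie on the right and the WT 1 and KO 2 symbols on the left, while Nek2 and Kif11 lie under 1 FPKM in every pool.

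Among the genes of proliferation and chromosome structure, Mki67, which encodes the Ki-67 protein that coats mitotic chromosomes (ENSMUSG00000031004, chr7:135689784-135716361), had an FPKM of 7.43 and 11.5 in the WT pools and of 9.01 and 5.86 in the KO pools. The highest pool was WT and the lowest KO, but the first KO pool lay between the WT pools. Top2a, the DNA topoisomerase that untangles sister chromatids (chr11:98992943-99024189), was at 6.55 and 10.6 in WT and at 9.26 and 5.04 in KO. It had the same order of pools as Mki67. Smc2 and Smc4, the ATPase core of condensin, were at 3.85 and 5.39 and at 8.32 and 10.4 in WT, and at 4.73 and 3.31 and at 10.03 and 7.02 in KO. The ratio of Smc4 to Smc2 was close to constant, at 2.16, 1.93, 2.12 and 2.12 in WT pools 1 and 2 and KO pools 1 and 2. Ncapg, a condensin I subunit, was lower, at 1.07 and 1.47 in WT and 1.08 and 0.723 in KO. The remaining condensin I subunit in the list, Ncaph, was at 3.22 and 3.70 in WT and 3.997 and 2.75 in KO.

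Of the genes of mitotic entry, Cdk1, the kinase that starts mitosis (chr10:69335146-69352938), had an FPKM of 5.15 and 6.40 in WT and of 7.73 and 5.07 in KO. Its partner cyclin B1 (Ccnb1, chr13:100778650-100786570) was at 5.43 and 6.22 in WT and at 7.53 and 6.13 in KO, and cyclin B2 (Ccnb2) at 17.8 and 19.7 in WT and 25.7 and 14.5 in KO. For both cyclins the first KO pool was the highest, and the ranges of the genotypes overlapped. Of 100-base windows of the longest Ccnb1 transcript, 28.6% also occur in the annotated genes Ccnb1-ps, Gm12856, Gm4870 and Gm8416. The level of Ccnb1 is therefore less certain than that of Ccnb2, depending on how such reads were counted. Ccna2, cyclin A2, which acts in S phase and early mitosis, was at 7.12 and 9.74 in WT and 9.46 and 6.53 in KO. The pair of highest pools was the same as for Cdk1, WT pool 2 and KO pool 1.

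In the kinases of this role that were tested, WT pool 2 and KO pool 1 were the higher of their genotype. Plk1, Polo-like kinase 1 (chr7:122159439-122169873), was at 9.20 and 12.5 FPKM in WT and 13.2 and 7.65 in KO. Aurka, the Aurora kinase of the spindle poles, was at 5.38 and 6.11 in WT and 7.68 and 5.47 in KO. Pbk, a mitotic kinase, spanned 5.09 to 8.91 FPKM, with both extremes in KO. Foxm1, the transcription factor that activates many of these genes in G2, was at 4.09 and 5.58 in WT and 5.63 and 4.61 in KO. Cdc25c, a phosphatase that activates Cdk1, was lower in KO pool 1 than in KO pool 2, at 1.63 and 1.83 in WT and 1.23 and 1.71 in KO, from 40 to 61 reads per library. It was the single tested member with its lowest level in KO pool 1.

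Within the chromosomal passenger complex, which corrects faulty attachments of chromosomes, Aurkb, its kinase (chr11:69045647-69051664), had an FPKM of 4.25 and 7.71 in WT and of 7.49 and 4.18 in KO. Birc5 (survivin) was at 5.41 and 7.84 in WT and 8.01 and 4.56 in KO, and Cdca8 (borealin) spanned 2.55 to 4.08. In all 3 genes each genotype had a high and a low pool. Of the kinetochore genes, Cenpa, the histone variant that marks centromeres, was at 2.75 and 4.05 in WT and 4.53 and 3.13 in KO. Cenpe, a kinesin that moves chromosomes to the spindle equator, was at 1.60 and 2.37 in WT and 2.08 and 1.59 in KO, and Cenpf at 1.19 and 1.42 in WT and 1.47 and 1.02 in KO. Kif2c, a kinesin that takes microtubules apart at the centromere, spanned 2.60 to 3.67 FPKM. None of these 7 genes separated the genotypes.

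Ndc80, Nuf2 and Spc25 are subunits of the NDC80 complex, which binds microtubules, and Spc25 had another order of pools than its partners. Ndc80 (chr17:71496100-71526857) was at 2.66 and 4.04 FPKM in WT and 3.45 and 1.96 in KO, and Nuf2 (chr1:169497934-169531464) at 1.28 and 1.75 in WT and 2.10 and 1.39 in KO. Spc25 (chr2:69193895-69206194) was at 15.6 and 9.61 in WT and 18.0 and 14.3 in KO, the single tested member with its lowest level in WT pool 2. The ratio of Spc25 to Nuf2 was 12.2 and 5.49 in WT and 8.55 and 10.3 in KO, and that of Spc25 to Ndc80 was 5.88 and 2.38 in WT and 5.21 and 7.28 in KO. Spc25 values rest on 527 to 959 reads per library. No other gene overlaps its exons, and no 100-base window of its longest transcript is shared with another gene.

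Of the spindle checkpoint and APC/C genes, Cdc20, the activator of the APC/C at anaphase (chr4:118432901-118437352), had an FPKM of 17.5 and 20.2 in WT and of 27.9 and 15.5 in KO. Ube2c, the ubiquitin-conjugating enzyme of the APC/C, was at 9.76 and 11.2 in WT and 12.3 and 7.84 in KO, with 22.8% of its exon bases overlapped by Tnnc2. In both genes KO pools were the highest and the lowest. Bub1b, the checkpoint protein BubR1, was at 3.55 and 5.14 in WT and 4.60 and 3.08 in KO. The checkpoint kinase Bub1 was at 1.90 and 2.31 in WT and 1.81 and 1.80 in KO, and the checkpoint kinase Ttk (Mps1) at 1.09 and 1.29 in WT and 1.06 and 0.789 in KO. Bub1 and Ttk were the members among those tested whose KO pools both lay below both WT pools, by a narrow margin in each. Cdca3, which promotes degradation of the mitosis inhibitor Wee1, spanned 8.02 to 11.9 FPKM with both extremes in KO.

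Among the genes of spindle assembly, Hmmr, a microtubule-binding protein of the spindle poles, had an FPKM of 3.37 and 3.68 in WT and of 5.10 and 2.64 in KO, the largest ratio between the KO pools among tested members (1.93-fold). Tpx2, which activates Aurora A on the spindle, spanned 5.31 to 8.10 FPKM with both extremes in WT. Nusap1, which bundles spindle microtubules, was at 5.18 in both WT pools and at 6.70 and 4.72 in KO. Kif4, a chromosome-bound kinesin, spanned 1.86 to 2.81. Kif11, the kinesin that pushes spindle poles apart (chr19:37376403-37421859), was far lower, at 0.568 and 0.856 in WT and 0.385 and 0.153 in KO, from 44, 71, 31 and 12 reads.

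Among the central spindle and cytokinesis genes, Prc1, which cross-links the central spindle, had an FPKM of 2.81 and 3.80 in WT and of 3.89 and 3.05 in KO. Kif23, a subunit of centralspindlin, was at 2.98 and 4.06 in WT and 3.47 and 3.65 in KO, and Racgap1, its partner, spanned 3.39 to 4.75. Kif23 was 1 of 2 tested members that were not higher in KO pool 1 than in KO pool 2. Ect2, the exchange factor that activates RhoA at the furrow, was at 5.70 and 6.48 in WT and 7.05 and 4.34 in KO. Anln (anillin), a scaffold of the contractile ring, was at 3.23 and 4.52 in WT and 3.77 and 3.58 in KO. Kif20a, a kinesin of the central spindle, was at 4.34 and 5.25 in WT and 7.18 and 4.66 in KO, with 29.3% of its exon bases overlapped by Cdc23. Summed over the 6 genes of this role, the FPKM was 22.5 and 28.9 in WT and 30.0 and 22.9 in KO, and the highest sum was 1.33 times the lowest, against 1.74 times for chromosome structure.

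No mitosis gene passed the test of KO against WT. The genotypes were compared with limma on log2(FPKM + 0.5), a scale on which the difference of a low gene is understated. Of 41 mitosis genes tested, 0 passed an adjusted p of 0.05 with limma and Benjamini-Hochberg adjustment, and 0 of all 15414 genes did (0.0%). The deleted gene, Apela, was among those 15414, and the smallest limma adjusted p of any gene was 0.4655. The test thus missed even that known loss, so a count of 0 does not show that levels were unchanged. The authors, with their own processing and the same cutoff of 0.05, did list altered genes. At an unadjusted p under 0.05 there were 0 members, against 974 genes (6.32%) in all. The adjusted p of the members ranged from 0.827 to 0.993 and the smallest unadjusted limma p was 0.226. The differences of KO minus WT on this log2 scale ranged from -0.34 to 0.37 with a median of -0.030, beside 0.0071 over all genes, and 20 members were higher and 21 lower in KO. With every library brought to the same FPKM total, which moved the median of all genes to -0.083, the split was 11 higher and 30 lower and the median of the members -0.12. The p-values measure the spread between pools of each genotype. For a single gene with 2 pools a side, the smallest two-sided p of an exact permutation test is 0.333.

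The tested members with the largest differences are given with their error. Spc25 was 0.37 higher on the log2 scale in KO (SE 0.266, 95% interval -0.33 to 1.07, limma adjusted p = 0.827). Kif20a was 0.25 higher (SE 0.233, limma adjusted p = 0.855), and Ccnb1 0.21 higher (SE 0.152, 95% interval -0.19 to 0.61, limma adjusted p = 0.828). In the other direction Ncapg had a difference of -0.34 (SE 0.243, limma adjusted p = 0.828), Mki67 of -0.33 (SE 0.294, limma adjusted p = 0.854) and Ndc80 of -0.28 (SE 0.309, limma adjusted p = 0.882). In each of these 6 genes the pools of the genotypes overlapped, and each interval held 0. All 6 differences depended on which pools were kept. With 1 pool left out at a time, that of Spc25 ran from 0.035 (without WT pool 2) to 0.71 (without WT pool 1, limma adjusted p = 0.398), that of Kif20a from -0.034 (without KO pool 1) to 0.54 (without KO pool 2), and that of Ccnb1 from 0.072 (without KO pool 1) to 0.35 (without KO pool 2). The difference of Ncapg ran from -0.52 (without KO pool 1) to -0.15 (without KO pool 2), that of Mki67 from -0.63 (without WT pool 1) to -0.028 (without WT pool 2), and that of Ndc80 from -0.62 (without KO pool 1) to 0.061 (without KO pool 2).

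**Figure D2:**
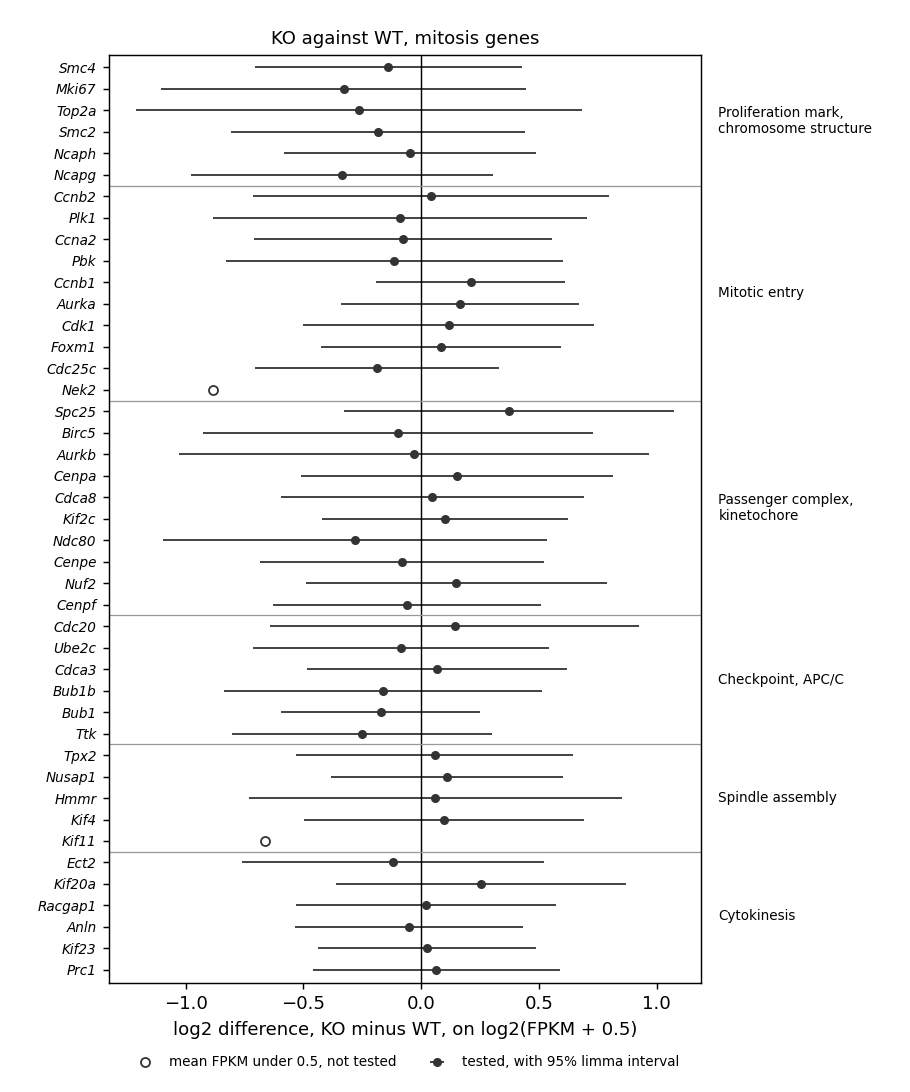
Difference of KO minus WT for each mitosis gene on log2(FPKM + 0.5), with the 95% interval of the limma fit for the 41 tested genes as a line and Nek2 and Kif11, which were not tested, as open circles. All 41 intervals cross 0, and the extremes of the intervals are -1.21 and 1.07.

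By role, the 6 genes of proliferation and chromosome structure all had a difference below 0, with a median of -0.22, though none passed the test. Top2a, Ncaph, Smc2 and Smc4 lay above 0 when WT pool 2 or KO pool 2 was left out. Differences of mitotic entry genes were on both sides of 0, 5 above and 4 below among the 9 tested, with a median of 0.042. Of 10 passenger complex and kinetochore genes, 5 lay above and 5 below, and of 6 checkpoint and APC/C genes, 2 above and 4 below. The 4 spindle assembly genes tested lay above 0, by 0.057 to 0.11. All 4 lay below 0 when KO pool 1 was left out, Tpx2 and Kif4 also when WT pool 1 was, and Tpx2 and Hmmr with an equal FPKM total per library. Of the cytokinesis genes, 4 lay above and 2 below. The width of the intervals sets what could have been seen. The median half-width of the 95% interval was 0.62 on the log2 scale, and the median SE of the members, 0.234, was larger than that of all genes, 0.171.

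The pools of the genotypes seldom separated. In 0 of 41 tested members did both KO pools lie above both WT pools, against 19.7% of all genes. In 2 of 41, Bub1 and Ttk (4.88%), both KO pools lay below both WT pools, against 18.1% of all genes. Their differences were -0.17 (limma adjusted p = 0.856) and -0.25 (limma adjusted p = 0.851) on the log2 scale. With the untested Nek2 and Kif11 the count was 4 of 43 (9.30%).

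For most tested members the larger differences were between pools of the same genotype. Of 41 tested members, 40 were higher in WT pool 2 than in WT pool 1, and 39 were higher in KO pool 1 than in KO pool 2, whereas 49.2% of all genes went each of these ways. Both held in 38 of 41 members (92.7%) and in 24.7% of all genes. On the log2 scale the median difference between the WT pools was 0.33 (all genes, -0.0045) and between the KO pools 0.46 (all genes, -0.0043). As a ratio of FPKM, the medians were 1.35-fold and 1.45-fold, and the largest were 1.82-fold between the WT pools (Aurkb) and 1.93-fold between the KO pools (Hmmr). KO pool 1 was the highest pool for 23 members and WT pool 2 for 18, while KO pool 2 was the lowest for 25 and WT pool 1 for 14. The members are known to be co-regulated and come from the same 4 libraries, so their number does not add replicates.

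**Figure D3:**
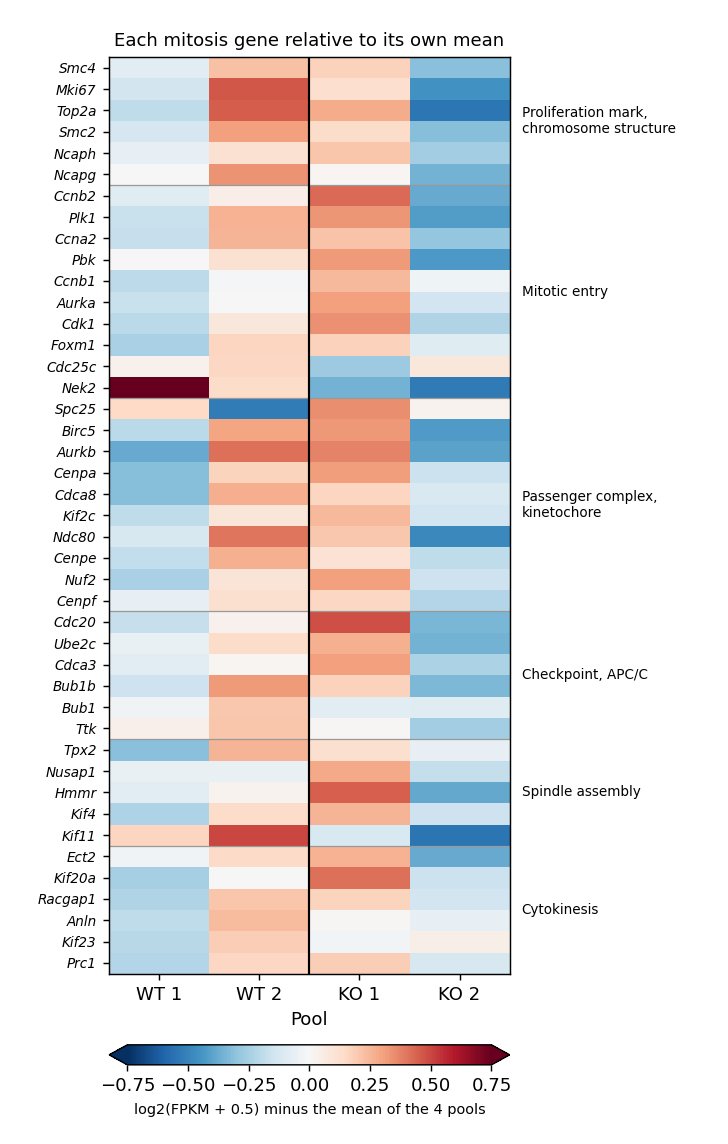
Each mitosis gene in each pool as log2(FPKM + 0.5) minus its own mean over the 4 pools, with red above and blue below the mean and a black line between WT and KO. The columns of WT 2 and KO 1 are mostly red (median 0.16 and 0.21) and those of WT 1 and KO 2 mostly blue (median -0.17 and -0.24). Spc25, Nek2, Kif11, Cdc25c and Kif23 are among the rows of another pattern.

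For the tested members the genotype difference was small beside this spread. In 32 of 41 members (78.0%) its size was below both differences between pools of the same genotype, against 39.0% of all genes, and in 41 of 41 it was below at least 1 of them, against 75.6%. The untested Nek2 and Kif11 went the other way, with the largest genotype differences of the 43 genes. That of Nek2 was -0.88, beside pool differences of -0.61 in WT (pool 2 minus pool 1) and 0.18 in KO (pool 1 minus pool 2), and that of Kif11 was -0.66, beside 0.34 and 0.44. Their WT means, 0.667 and 0.712 FPKM, were above the level filter and their KO means, 0.120 and 0.269 FPKM, below it, so their low KO level kept them out of the 41. The median SD within genotypes was 0.298 on the log2 scale for the members and 0.161 for all genes. Summed over the 43 genes, the FPKM was 216 and 265 in WT and 292 and 195 in KO, or 240 ± 34.5 in WT and 243 ± 68.2 in KO (mean ± SD, n = 2 pools each). The highest sum was 1.49 times the lowest, and both belonged to KO.

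**Figure D4:**
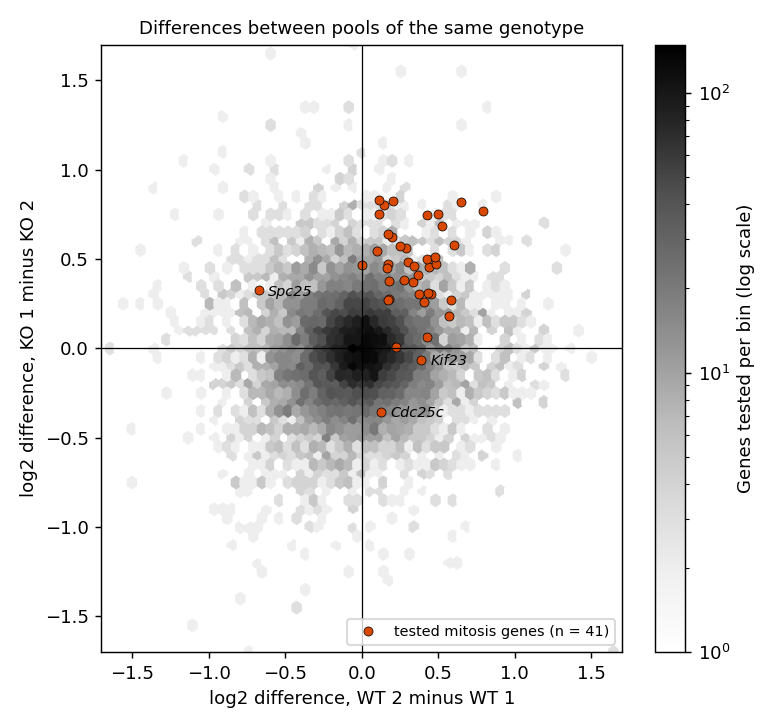
Log2 difference between the WT pools (x axis, WT 2 minus WT 1) and between the KO pools (y axis, KO 1 minus KO 2), both on log2(FPKM + 0.5), for all genes tested (grey bins, darker with more genes, with genes beyond the axes left out) and for the 41 tested mitosis genes (orange points). Of the orange points, 38 lie in the upper right, and Spc25, Cdc25c and Kif23 lie outside it.

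The members apart from this pattern were Spc25, Cdc25c and Kif23 among those tested, and Nek2 and Kif11 by their level. Nek2, a kinase that splits centrosomes at the start of mitosis (chr1:191821444-191833050), was at 0.909 and 0.425 FPKM in WT and 0.159 and 0.0818 in KO. These values came from 66, 33, 12 and 6 reads, with exact 95% Poisson intervals of 51.0 to 84.0, 22.7 to 46.3, 6.2 to 21.0 and 2.2 to 13.1 reads that cover counting error only. The WT pools had more reads than the KO pools, and the WT pools also differed from each other beyond counting error. Its difference of -0.88 on the log2 scale was not tested at the level filter used, and without that filter its unadjusted limma p was 0.0285 and its limma adjusted p 0.824 over 27251 genes. Kif11 had intervals of 32.0 to 59.1 and 55.5 to 89.6 reads in WT, and of 21.1 to 44.0 and 6.2 to 21.0 in KO. Its difference was -0.66, with an unadjusted limma p of 0.0576 and a limma adjusted p of 0.824 without the filter. Leaving out 1 pool at a time, the difference stayed between -0.58 and -1.19 for Nek2 and between -0.44 and -0.88 for Kif11.

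Other genes of the cell cycle were compared from lists that share no member with the 43. Of 78 other G2 and M phase genes tested, 0 passed the adjusted p and 1 had an unadjusted p under 0.05, Pttg1 (securin, which is degraded at anaphase), at 15.2 and 12.5 FPKM in WT and 18.6 and 17.4 in KO (log2 difference 0.37, limma adjusted p = 0.786). The largest differences on this list were -0.43 for Cdca7 and 0.48 for Oip5, and among the S phase genes -0.45 for Gins3 and 0.33 for Tk1. Both differences between pools had the direction of the mitosis genes in 60 of the 78 (76.9%). Of all genes, 24.7% had both in that direction and 6.32% had an unadjusted limma p under 0.05. Of 54 DNA replication and S phase genes, 0 passed and 0 had an unadjusted p under 0.05, their median difference was -0.056, and 47 (87.0%) shared the pool pattern. WT pool 2 was the highest for 43 of these 54, whereas KO pool 1 was the highest for most mitosis genes. The ratio of the summed mitosis genes to the summed S phase genes was 0.755 and 0.698 in WT and 0.830 and 0.674 in KO, so it did not separate the genotypes. Of 9 G1 cyclins and kinases tested, 0 passed and 4 shared the pattern, with summed FPKM of 106 and 131 in WT and 109 and 119.7 in KO and differences from -0.19 for Cdk4 to 0.20 for Ccnd3.

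Of 19 cell cycle inhibitors and arrest genes tested, 0 passed the adjusted p and 2 had an unadjusted limma p under 0.05, against 6.32% of all genes. The pool pattern of the mitosis genes was present in 6 (31.6%), against 24.7% of all genes. Cdkn1a, which encodes the Cdk inhibitor p21, was at 25.8 and 24.9 FPKM in WT and 59.0 and 45.7 in KO. Its KO pools lay above its WT pools, with a log2 difference of 1.02 (SE 0.162, limma adjusted p = 0.545). Sesn2, a stress-induced gene, was at 21.4 and 23.5 in WT and 28.6 and 29.7 in KO (log2 difference 0.37, limma adjusted p = 0.785). The lowest difference on this list was -0.30, for Gadd45b, the median was 0.034, and 12 genes were higher and 7 lower in KO. The FPKM of the 20 listed genes summed to 356 and 348 in WT and 409 and 397 in KO, and without Cdkn1a to 329.98 and 323 in WT and 350.05 and 351 in KO.

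Markers of the cell types in the kidney also differed between pools. The 12 injured tubule markers summed to 8349 and 9453 FPKM in WT and to 10560 and 8180 in KO, but most of that sum was Spp1 (osteopontin), at 7026 and 7789 in WT and 8961 and 6872 in KO, and 5 of the 12 had the pool pattern of the mitosis genes. The 12 kidney tubule markers summed to 3256 and 2422 in WT and 2672 and 2739 in KO, lowest in WT pool 2, and 0 of 12 had the pool pattern of the mitosis genes. Of the macrophage markers 7 of 11 had it, against 24.7% of all genes. The macrophage markers summed to 222 and 504 in WT and 279 and 247 in KO. Fibroblast markers summed to 185 and 379 in WT and 231 and 316 in KO, and endothelial markers to 209 and 244 in WT and 286 and 305 in KO. Much of the endothelial sum was Plvap, at 103 and 110 in WT and 161 and 152 in KO. In 5 of the 10 endothelial markers both KO pools lay above both WT pools, against 19.7% of all genes. Neutrophil markers, with Ly6g and Mpo listed at 0 in every library, summed to 11.1 and 22.8 in WT and 11.9 and 29.0 in KO, T and B cell markers to 2.01 and 3.74 in WT and 2.00 and 1.39 in KO, and red cell markers to 136 and 131 in WT and 69.7 and 186 in KO. Adipose markers summed to 12.1 and 14.2 in WT and 23.3 and 15.1 in KO, with Ucp1 listed at 0. KO pool 1 and WT pool 2, in which the mitosis genes were high, differed from each other in macrophage and fibroblast markers. The part of these markers in the levels of the mitosis genes was not tested.

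Of 70 genes tested in the marker lists 0 passed the adjusted p, and 10 (14.3%) had an unadjusted limma p under 0.05, against 6.32% of all genes. They were the injured tubule markers Lcn2, Krt20 and Vcam1, the kidney tubule markers Lrp2 and Slc5a2, the endothelial markers Plvap and Flt1, the fibroblast marker Dcn, the red cell marker Klf1 and the adipose marker Cidec. Higher in KO on the log2 scale were Lcn2 by 1.21, Krt20 by 0.73, Plvap by 0.55, Flt1 by 0.50, Klf1 by 0.77 and Cidec by 2.12. Lower in KO were Vcam1, with a difference of -1.91, Lrp2 with -0.38, Slc5a2 with -0.65 and Dcn with -0.78. The pools of these 10 genes, chosen by their unadjusted limma p, did not overlap between genotypes. Among all genes both KO pools lay above both WT pools in 19.7% and below both in 18.1%. The limma adjusted p of the 10 ranged from 0.545 for Krt20 to 0.785 for Vcam1. The remaining extremes of the lists were -0.74 for Slc34a1 and 0.73 for Slc22a6 (kidney tubule), -0.85 for Adgre1 and 0.16 for Mertk (macrophage), -0.31 for Csf3r and 0.72 for Retnlg (neutrophil), -0.17 for Cd79b and 0.065 for Trac (B and T cell), 0.050 for Cdh5 (endothelial), 0.42 for Acta2 (myofibroblast), -0.71 for Slc4a1 (red cell) and 0.18 for Fabp4 (adipose).

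**Figure D5:**
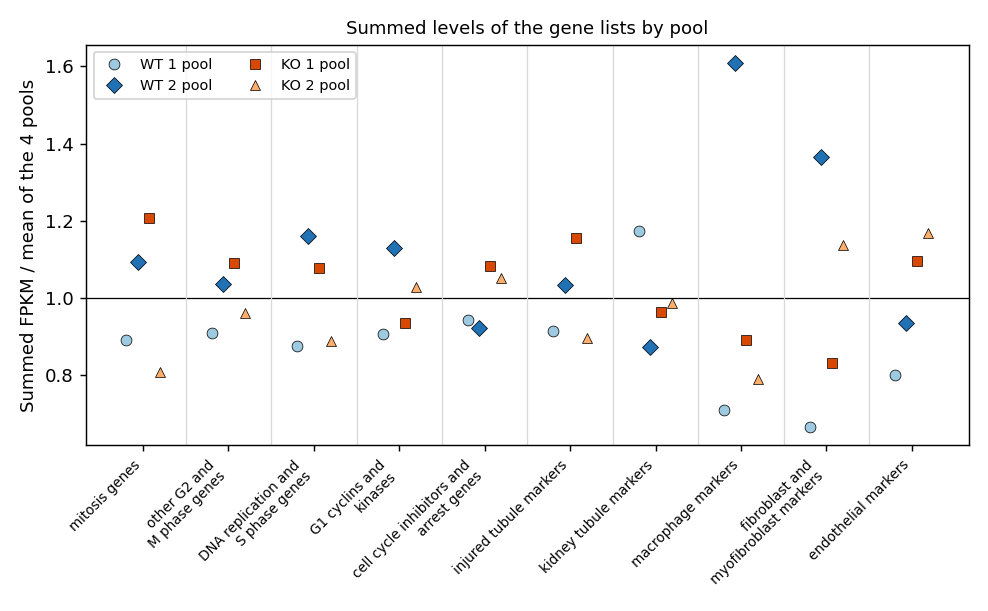
Summed FPKM of each gene list in each pool, divided by the mean of the 4 pools for that list (y axis), with WT pools in blue and KO pools in orange. For the mitosis genes KO 1 and WT 2 lie above 1 and WT 1 and KO 2 below, while the macrophage markers stand highest in WT 2 and the sum of the cell cycle inhibitors, with Cdkn1a included, lies higher in both KO pools than in both WT pools.

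Reads of a few members could be shared with other genes. The exons of 7 members (Kif20a, Ube2c, Kif4, Ncapg, Cdc25c, Ccna2 and Prc1) are overlapped over more than 10% of their bases by another gene. In 5 members over 10% of the 100-base windows of the longest transcript, the only one searched, are shared with another gene. For 26 members no such window is shared. The library protocol does not state that strand was kept, so reads of an overlapping gene on the opposite strand cannot be told apart from those of the member.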

How the data were processed

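Poly(A) RNA libraries from 4 pools of kidney RNA were sequenced by a company for the authors, whose processing notes name HISAT2 2.0.5 and GRCm38.p6 (mm10). The counting tool is not given in the sources used here. The deposited values are FPKM computed by the authors, in 1 table with a column per library and the gene length of each model (another unit, in bases). FPKM times length gave whole reads for 100% of nonzero values within 0.01 of a read, and these recovered reads were used for depth and for voom weights. The library totals that they imply behind the FPKM were 1.607e+07 and 1.720e+07 in WT and 1.673e+07 and 1.624e+07 in KO. That total was above the reads on genes in WT pool 2 and below them in the other pools.

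The main fit used limma 3.58.1 in R 4.3.3 (lmFit, eBayes with trend) of log2(FPKM + 0.5). A gene was kept when its FPKM averaged 0.5 or more over the 4 libraries, which left 15414. No covariates were used, tests were two-sided, and p-values were adjusted over all genes kept (Benjamini-Hochberg). Residual degrees of freedom were 2 and prior degrees of freedom 2.62, and the threshold was an adjusted p of 0.05. The script was tested on simulated data. Sums, ratios and sequence matches used Python 3.11.15 with pandas 2.3.3, numpy 2.4.6 and scipy 1.17.1. Motifs were searched as exact letters on both strands. Levels in every pool are given for marker genes of each role and for the 3 members with the largest difference in each direction, and of other lists the genes with an unadjusted p under 0.05 or the largest difference in each direction are named. Of 12 macrophage markers, Itgam has 2 identifiers in the table and was left out. The members, the lists and the tests were chosen with earlier results of these data known.

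The alternatives tried were other pseudocounts (0.1 and 1), other filters (none, or an average FPKM of 1 or more), other scalings (quantile, or an equal FPKM total per library), eBayes without trend, voom weights, a replicate block, and each pool left out in turn. Precision is limited by 2 pools per genotype.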

Additional observations from a re-analysis of the deposited data

How the results depend on the processing

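No mitosis gene and no other gene passed an adjusted p of 0.05 under any alternative tried, with limma and Benjamini-Hochberg adjustment. Genes with an unadjusted p under 0.05 numbered 687 to 1720, against 974, and members 0 or 1. The 1 member was Nek2 when no filter was used, Spc25 when WT pool 1 was left out, and Pbk or Cdc20 when KO pool 1 or 2 was. The median difference of the members lay between -0.12 and -0.024 under other pseudocounts, filters, scalings and weights. Scaling to the same FPKM total shifts all genes of a library alike, and 9 members close to 0 changed sign by it.

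Leaving out 1 pool moved the median most. With a WT pool left out it was -0.18 (pool 1) or 0.12 (pool 2), and with a KO pool left out it was -0.23 (pool 1) or 0.22 (pool 2). In the same order 8, 33, 3 and 34 of 41 members were higher in KO. Over these fits the log2 difference ranged from -0.034 to 0.54 for Kif20a and from -0.62 to 0.061 for Ndc80, which both changed sign. In them the lone pool is assumed to vary like the other group. The adjusted p over all alternatives was 0.398 to 0.994 for Spc25, 0.545 to 0.998 for Mki67, 0.601 to 0.994 for Ncapg, 0.644 to 0.996 for Ndc80, 0.820 to 0.992 for Ccnb1 and 0.834 to 0.996 for Kif20a.

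In the fit with a replicate block 0 genes were called, the smallest adjusted p was 0.746 and 932 genes had an unadjusted p under 0.05. The deviations of same-numbered pools had a correlation across genes of -0.00166. With 2 pools per genotype this value cannot show whether pools were paired or processed together, by number or otherwise. Depth was not varied, and 2 pools per genotype left a median half-width of 0.62 on the log2 scale.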
